A study of Mus musculus with 16 samples.

Results

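Monocytes leave the blood for inflamed tissue along gradients of small secreted proteins, the CC chemokines, which are read by receptors coupled to G proteins on the monocyte surface. Ccl2, Ccl7 and Ccl12 are ligands of Ccr2, the receptor that classical monocytes use to leave the bone marrow and enter tissue. Ccl3 and Ccl4 are made largely by activated macrophages and lymphocytes, and Ccl3 and Ccl9 signal through Ccr1. In the allergic lung these ligands accompany recruitment of monocytes, which then become macrophages and dendritic cells. The group examined here comprised these 6 ligand genes and both receptor genes, and its members were all the probe sets of the array whose annotation gave exactly 1 symbol that was one of these names or a synonym. These were 8 of the 18193 genes named on the array, and 13 of its 45037 probe sets qualified, 7 of them for ligands and 6 for receptors, with no filter on low values. Ccl9 and Ccr1 had 2 probe sets each, Ccr2 had 4 and each other gene 1. Probe sets of a gene share its RNA and are not independent.

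The lungs were left lungs of 16 Balb/c mice, 23 weeks old, each measured on 1 Affymetrix mouse expression array. EF and EM are the female and male offspring of dams that breathed second-hand smoke (SHS) during pregnancy, AF and AM those of dams kept in filtered air, and each group held 4 mice. The smoke was sidestream smoke at 10 mg/m3, given daily (7 days per week) in sessions of 5 h. As adults all 4 groups, the air groups included, received the allergen ovalbumin (OVA, from egg white), first by injection at weeks 19 and 21 of age and then as an aerosol at weeks 22 and 23. Every difference below was therefore measured in allergen-challenged lungs, and lungs without OVA were not analysed here. The labels name no litters, so p-values measure the spread between these mice, some of which may be littermates. In whole lung, a change in the number of cells that express a gene and a change in RNA per cell cannot be told apart.

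Values are log2 intensities as deposited, and differences are SHS minus air within a sex, with standard errors (SE) from limma. A probe set was called at an adjusted p under 0.05 over all probe sets. Precision was limited by the 4 arrays in a group. Over all probe sets, 2 arrays correlated at 0.990 to 0.998 within a sex, and at 0.959 to 0.974 between sexes. The Gapdh control probe sets, compared between the 3′ and 5′ ends of the transcript, differed by -0.52 to -0.39 in EF and -0.48 to -0.41 in AF, but by 0.14 to 0.52 in EM and 0.25 to 0.36 in AM. Levels of females were for that reason never set against levels of males. EF replicate 4 stood apart, with a mean correlation of 0.992 with the other EF arrays and 0.995 with the AF arrays, so results for females are also given without it. Leaving out the EF array most like the air arrays favours larger differences. Those results are therefore a description and no independent support for a rise. The lung markers Sftpc and Scgb1a1, of alveolar and airway epithelium, averaged 15.12 and 15.03 in EF, 15.09 and 15.06 in AF, 15.10 and 15.16 in EM and 15.09 and 15.16 in AM.

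On the mouse assembly GRCm38.p6, Ccl2 (chromosome 11, 82035577 to 82037452) lay 8.26 kb before Ccl7 (82045712 to 82047525), and Ccl12 (82101845 to 82103399) ended 67.8 kb from the start of Ccl2. Ccl9 (83572917 to 83578636), Ccl3 (83647843 to 83649378) and Ccl4 (83648624 to 83664683) formed a second cluster 1470 kb further along, in which the annotated spans of Ccl3 and Ccl4 overlapped. Both receptors were on chromosome 9, Ccr1 at 123962126 to 123968692 and Ccr2 at 124101918 to 124109140, 133 kb apart. RefSeq sequence before an annotated start was given for 5 of the 8 members, Ccl12, Ccl3, Ccl9, Ccr1 and Ccr2. The window of Ccr2 (124101933 to 124102182) lay inside the annotated span of the gene, and those of the other 4 lay directly before it. Those of Ccl12, which was higher in both sexes, and of Ccl9 and Ccr1, whose values moved together from array to array, follow, each with the 250 bases before the annotated start, 5′ to 3′ on the strand of the gene. Their positions are chr11:82101595-82101844 (plus strand), chr11:83578637-83578886 (minus strand) and chr9:123968693-123968942 (minus strand).
Ccl12: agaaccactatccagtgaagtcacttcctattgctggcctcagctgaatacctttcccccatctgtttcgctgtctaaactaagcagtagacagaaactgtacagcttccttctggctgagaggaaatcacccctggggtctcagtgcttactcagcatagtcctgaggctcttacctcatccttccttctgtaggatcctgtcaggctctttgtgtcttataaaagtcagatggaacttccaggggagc
Ccl9: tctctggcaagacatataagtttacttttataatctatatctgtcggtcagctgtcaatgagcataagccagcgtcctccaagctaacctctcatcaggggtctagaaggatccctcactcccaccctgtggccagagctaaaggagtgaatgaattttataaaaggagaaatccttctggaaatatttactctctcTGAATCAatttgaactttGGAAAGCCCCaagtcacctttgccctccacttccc
Ccr1: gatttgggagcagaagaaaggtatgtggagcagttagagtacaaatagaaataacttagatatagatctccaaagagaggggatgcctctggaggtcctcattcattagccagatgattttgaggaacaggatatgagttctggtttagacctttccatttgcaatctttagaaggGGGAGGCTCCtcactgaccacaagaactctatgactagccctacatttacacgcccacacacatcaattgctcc
Capitals mark matches on either strand to 3 motifs of factors that act on inflammatory genes, the NF-kB motif GGGNNNNNCC, the AP-1 motif TGANTCA and the STAT motif TTCNNNGAA. The Ccl9 window held a match to the NF-kB motif on the opposite strand, beginning 35 bases before the start, and a match to the AP-1 motif at 53 bases, and these did not overlap. The Ccr1 window held a match to the NF-kB motif at 74 bases. No match to the 3 motifs was found in the windows of Ccl12, Ccl3 and Ccr2. Of all 32851 RefSeq windows of this length, 45.8% held the NF-kB motif, 6.75% the AP-1 motif and 7.02% the STAT motif, so that a match describes these letters and shows no binding.

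In SHS females 3 of the 13 probe sets were higher than in air females, those of Ccl7 and Ccl12 and the brighter of the pair for Ccr1, against 2.36% of all probe sets called higher in that comparison. In SHS males 4 were higher, those of Ccl2, Ccl7, Ccl12 and Ccl4, against 3.07% of all probe sets. None was lower in either sex by limma, where 0.517% of all probe sets were lower in females and 2.11% in males. In both directions together 2.87% of all probe sets were called in females and 5.18% in males. All 13 members were brighter than the dimmest 40% of probe sets. With those dropped, 5.40% of the rest were called higher in females and 6.16% in males, with 3 and 5 members called. An unadjusted p under 0.05 was reached by 9 members in females, where 16.0% of all probe sets reached it, and by 6 in males, where 20.2% did. Ccl7 and Ccl12 were higher in both sexes, as were 1.33% of all probe sets. The median log2 difference of the 13 probe sets was 0.72 in females and 0.49 in males, against -0.01 and 0.00 over all 45037. The EF and AF arrays did not overlap for 1 member, with EF higher, where this held for 5.61% of all probe sets (8.25% in either direction). The EM and AM arrays did not overlap for 5 members, with EM higher in each, where this held for 7.87% (15.4% in either direction). The members were chosen with earlier results of these data known, so these counts and medians give no independent support for a rise.

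**Figure D1:**
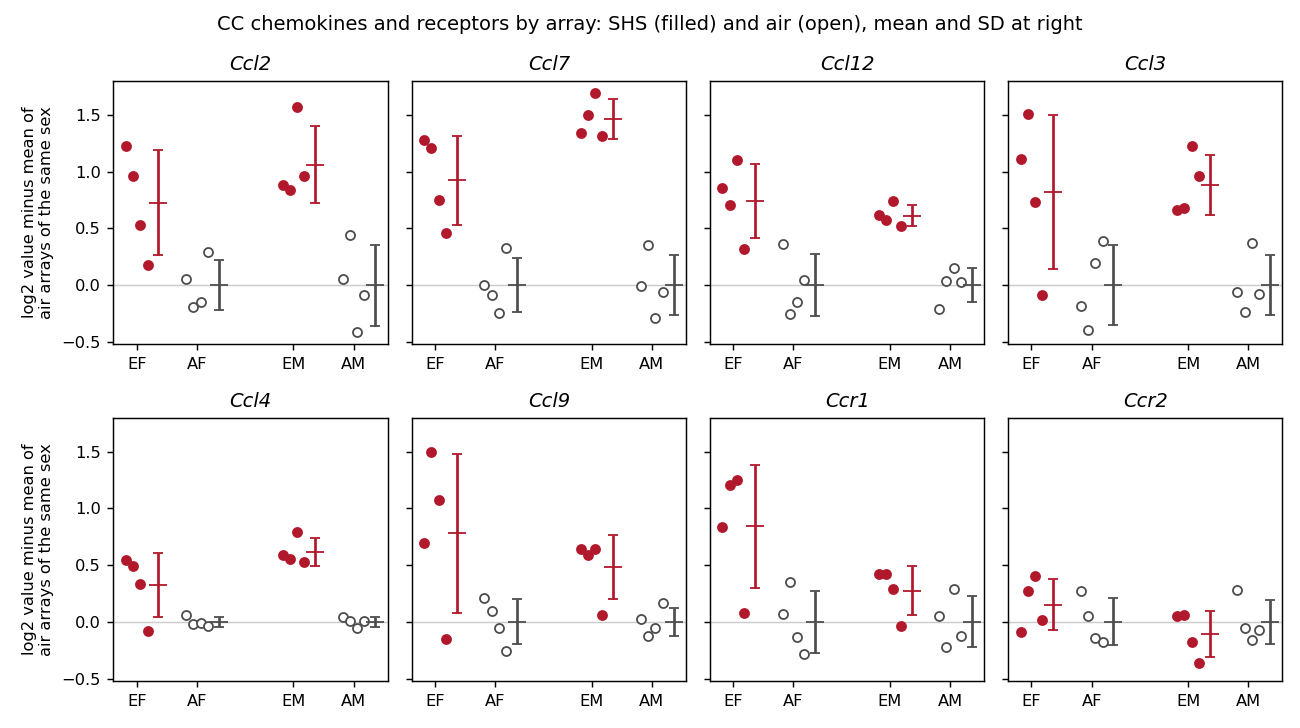
Log2 value of each array minus the mean of the air arrays of the same sex (vertical axis), for the brighter or only probe set of each gene. Filled points are SHS arrays (EF, EM), open points air arrays (AF, AM), and the bar at the right of each group is its mean with SD (n = 4). For Ccl7 all SHS arrays lay above all air arrays in each sex, whereas for Ccr2 the groups overlapped in both sexes.

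Ccl7 had the largest log2 difference of the members in each sex. In females its log2 values were 7.75, 7.68, 7.22 and 6.93 in EF, against 6.47, 6.39, 6.23 and 6.80 in AF. The lowest EF array, replicate 4, lay just above the highest AF array, and the groups did not overlap. The difference was 0.92 ± 0.17 (SE, n = 4 and 4), a 1.90-fold rise (adjusted p = 0.00609). In males its values were 7.98, 8.14, 8.33 and 7.95 in EM, against 6.63, 6.99, 6.35 and 6.58 in AM. All EM arrays lay well above all AM arrays. This was a rise of 1.46 ± 0.17, or 2.76-fold (adjusted p = 0.000189), which ranked 26 among all 45037 differences in males, where in females its rank was 114. Ccl7 was called in each sex whichever of the 16 arrays was left out.

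Ccl2, the principal Ccr2 ligand and the best studied monocyte attractant, passed the test in males. Its log2 values were 8.83, 8.78, 9.51 and 8.91 in EM, against 8.0, 8.39, 7.53 and 7.86 in AM. All EM arrays lay above all AM arrays, with EM replicate 3 highest. Ccl2 rose by 1.06 ± 0.21, or 2.09-fold (adjusted p = 0.00793), and was called in males in each of the 16 fits with 1 array left out. In females the values were 9.04, 8.77, 8.34 and 7.99 in EF, against 7.86, 7.62, 7.66 and 8.10 in AF. EF replicate 4 was below the highest AF array and the other EF arrays were above it. The female difference of 0.72 ± 0.21 did not pass the test (adjusted p = 0.0801), but without EF replicate 4 it was 0.91 and passed (adjusted p = 0.0112).

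Ccl12, a mouse ligand of Ccr2, rose in both sexes by similar amounts. Females had log2 values of 8.92, 8.77, 9.17 and 8.39 in EF, against 8.43, 7.81, 7.92 and 8.11 in AF. The groups overlapped by a narrow margin, since EF replicate 4 lay just under AF replicate 1. The rise was 0.75 ± 0.14, or 1.68-fold (adjusted p = 0.00788), and was called with any 1 array left out. When the female arrays were fitted alone it missed the threshold (adjusted p = 0.0615). Males had values of 8.77, 8.73, 8.89 and 8.67 in EM, against 7.94, 8.19, 8.30 and 8.18 in AM. The groups did not overlap, and the EM arrays lay close together, with an SD of 0.09 against 0.15 in AM. The rise was 0.61 ± 0.14, or 1.53-fold (adjusted p = 0.0193). The adjusted p was 0.0506 without EM replicate 1, 0.0666 without EM replicate 3 and 0.0678 without AM replicate 1.

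**Figure D2:**
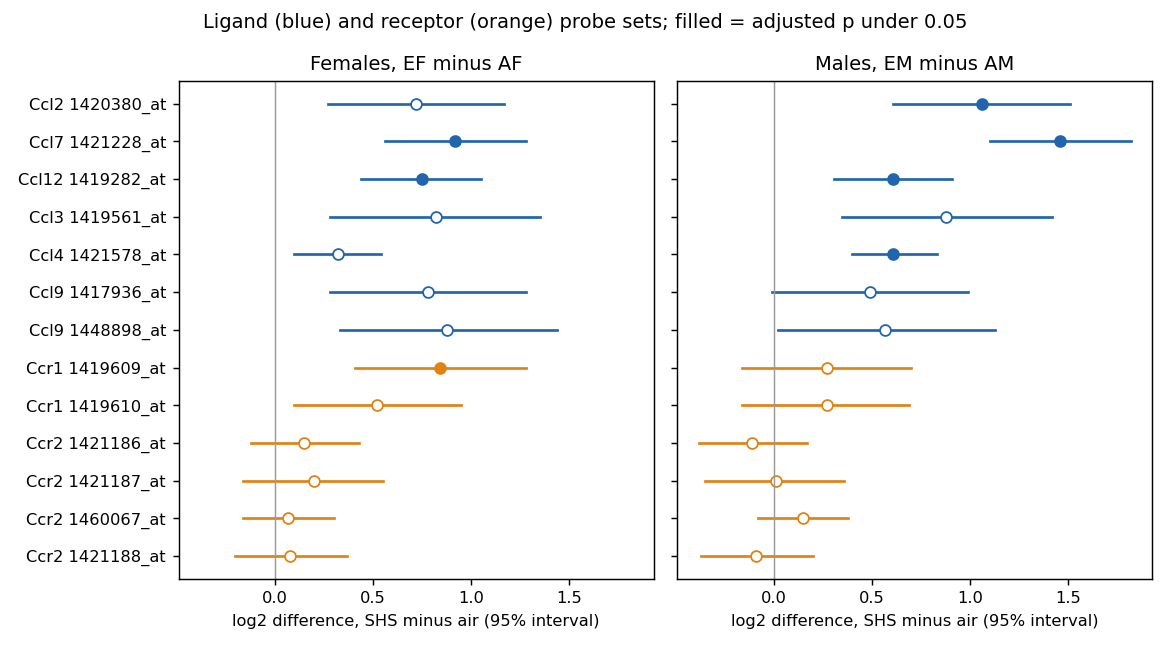
Log2 difference (horizontal axis, SHS minus air) of the 13 probe sets with its 95% interval, for females at the left and males at the right. Blue marks ligands, orange receptors, and filled points passed the test, among them Ccl7 at 0.92 in females and 1.46 in males, while the Ccr2 probe sets lay within 0.20 of zero in either direction.

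Ccl4, a chemokine of activated macrophages and T cells, was called in males. Its log2 values were 8.21, 8.18, 8.42 and 8.15 in EM, against 7.67, 7.63, 7.57 and 7.63 in AM. The groups were far apart relative to their spread, with an SD of 0.12 in EM and 0.04 in AM. The rise was 0.61 ± 0.10, or 1.53-fold (adjusted p = 0.00258). In females the values were 7.84, 7.79, 7.63 and 7.22 in EF, against 7.36, 7.28, 7.29 and 7.26 in AF. EF replicate 4 lay below all AF arrays, and the other EF arrays lay above them. The female difference of 0.32 ± 0.10 did not pass (adjusted p = 0.116), and was 0.45 without EF replicate 4 (adjusted p = 0.00138).

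Ccl3, which acts on Ccr1, did not pass the test in either sex, although its differences were as large as those of members that did. Males had log2 values of 7.55, 7.57, 8.11 and 7.85 in EM, against 6.83, 6.65, 7.26 and 6.81 in AM. The male groups did not overlap. Their difference was 0.88 ± 0.25 (adjusted p = 0.0527). It passed when the shared spread was estimated without EF replicate 2 (adjusted p = 0.0267) or EF replicate 4 (adjusted p = 0.00926), and when male arrays were fitted alone (adjusted p = 0.0103). Females had values of 7.89, 8.28, 7.51 and 6.69 in EF, against 6.59, 6.38, 6.97 and 7.16 in AF. EF replicate 4 lay within the AF range and the other EF arrays above it. The female difference was 0.82 ± 0.25 (adjusted p = 0.0972), and 1.12 without EF replicate 4 (adjusted p = 0.00245).

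Ccl9, a chemokine that acts on Ccr1 in mice, was measured by 2 probe sets whose differences were alike. For the brighter one the log2 values were 12.58, 13.38, 12.96 and 11.73 in EF, against 12.09, 11.98, 11.83 and 11.63 in AF. Replicate 4 lay inside the AF range, and the other EF arrays lay above that range. The female differences of 0.78 ± 0.24 and 0.88 ± 0.26 did not pass (adjusted p = 0.0914 and 0.0821). Without EF replicate 4 they were 1.09 and 1.22 and passed (adjusted p = 0.000661 and 0.000813). In males the brighter probe set had values of 12.56, 12.51, 12.56 and 11.98 in EM, against 11.94, 11.79, 11.86 and 12.08 in AM. EM replicate 4 lay inside the AM range, below the other EM arrays. The male differences were 0.49 ± 0.24 and 0.57 ± 0.26 (adjusted p = 0.264 and 0.23). With EF replicate 4 and EM replicate 4 both left out, the male differences were 0.62 and 0.77 and passed (adjusted p = 0.0167 and 0.00501). EM replicate 4 was the lowest EM array for both probe sets, so leaving it out had to raise these differences. That pass therefore gives no added support. With 1 array left out, each probe set was called in males in 0 of 16 fits. EM replicate 4 also had the highest Gapdh end difference of its group, 0.52 against 0.14 to 0.17 in EM replicates 1 to 3, and its part in this result was not tested.

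Ccr1, the receptor shared by Ccl3, Ccl7 and Ccl9 and carried by monocytes, macrophages and granulocytes, passed the test in females. The brighter probe set had log2 values of 9.62, 9.99, 10.03 and 8.86 in EF, against 8.85, 9.13, 8.65 and 8.50 in AF. EF replicates 1 to 3 lay above all AF arrays, and EF replicate 4 lay among them. The rise was 0.84 ± 0.21, or 1.79-fold (adjusted p = 0.0334). Its adjusted p was 0.0844, 0.114 and 0.118 without EF replicates 1, 2 and 3, and 0.0554, 0.104 and 0.111 without AF replicates 1, 3 and 4. With the female arrays fitted alone it was 0.12. Without EF replicate 4 the rise was 1.10 (adjusted p = 0.000375). The dimmer probe set had a female difference of 0.52 ± 0.20 (adjusted p = 0.192), and 0.74 without EF replicate 4 (adjusted p = 0.0147). In males the brighter probe set had values of 9.53, 9.53, 9.40 and 9.07 in EM, against 9.16, 8.89, 9.40 and 8.98 in AM. These groups overlapped, and the differences of both probe sets, 0.27 ± 0.21 and 0.27 ± 0.20, did not pass (adjusted p = 0.507 and 0.5).

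Ccr2, the receptor for Ccl2, Ccl7 and Ccl12 that marks classical monocytes, was not called by any of its 4 probe sets in either sex. The brightest had log2 values of 10.25, 10.61, 10.74 and 10.36 in EF, against 10.61, 10.39, 10.20 and 10.16 in AF. In males the values were 10.61, 10.62, 10.38 and 10.20 in EM, against 10.84, 10.51, 10.40 and 10.49 in AM. Both pairs of groups overlapped widely. The differences were 0.15 ± 0.13 in females (adjusted p = 0.63) and -0.11 ± 0.13 in males (adjusted p = 0.704). Over the other 3 probe sets they ranged from 0.07 to 0.20 in females and from -0.09 to 0.15 in males. The 95% intervals of the 4 probe sets reached at most 0.55 in females and 0.38 in males, so smaller rises could not be told from none. Whether ligands and receptors differed in their response was not tested.

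The response to smoke was compared between the sexes as the difference of the 2 differences, females minus males. By limma 0 of the 13 probe sets and 0 of all 45037 (0.00%) were called, with 1 and 3709 (8.24%) at an unadjusted p under 0.05. The member was Ccl7, at -0.54 ± 0.24 (unadjusted p = 0.0386, adjusted p = 0.59). Ccr1 and Ccl4 had differences of 0.57 ± 0.29 (adjusted p = 0.636) and -0.30 ± 0.15 (adjusted p = 0.626). The calls made in one sex and not in the other were therefore not shown to differ between the sexes.

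**Figure D3:**
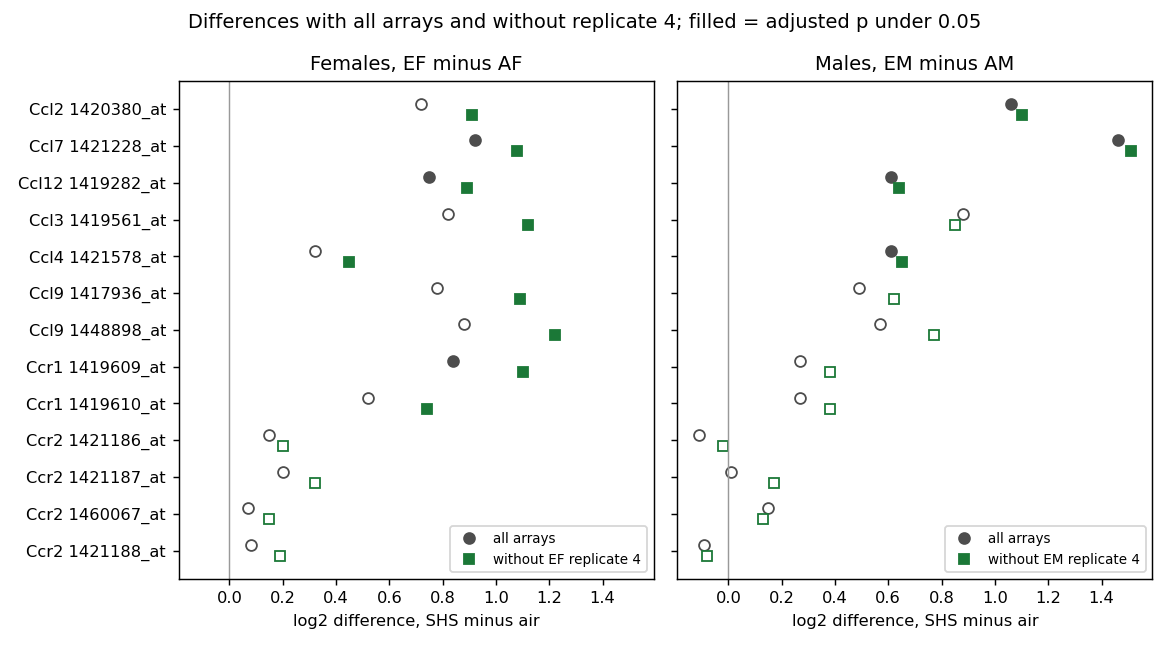
Log2 difference (horizontal axis, SHS minus air) of each probe set with all arrays (circles) and without replicate 4 of the SHS group of that sex (squares), females at the left and males at the right. Filled symbols passed the test. Without EF replicate 4, 9 of the 13 female probe sets passed in place of 3. All female differences were larger, which had to follow because that array lay below the EF mean for each.

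EF replicate 4 thus bore on most results in females. Without it 9 of the 13 probe sets were called higher, those of all 6 ligands and both of Ccr1, while 5.40% of all probe sets were called higher. The 4 Ccr2 probe sets were not called there either. With EF replicate 1, 2 or 3 left out in its place, 2 of the 13 were called. EF replicate 4 was set apart for its likeness to the AF arrays and lay below the EF mean for every member. Leaving it out therefore had to raise each female difference, and the calls gained give no added support. EF replicate 4 also differed in other cell markers. Its mean over 7 measured eosinophil markers was 6.83, below EF replicates 1 to 3 (7.98 to 8.41) and below the AF arrays (7.58 to 7.74), whereas its mean over 8 neutrophil markers was 8.11, against 7.58 to 7.77 in EF replicates 1 to 3 and 7.38 to 7.76 in AF. EM replicate 4 likewise had the lowest eosinophil mean of its group, 7.22 against 7.89 to 8.19 in EM replicates 1 to 3 and 7.53 to 7.88 in AM. The endothelial mean of EF replicate 4 was 12.06, above EF replicates 1 to 3 (11.58 to 11.68) and the AF arrays (11.70 to 11.94). That of EM replicate 4 was 11.60, above EM replicates 1 to 3 (11.28 to 11.33) and the AM arrays (11.26 to 11.41). The general macrophage mean of EF replicate 4 was 10.45, against 10.72 to 10.81 in EF replicates 1 to 3 and 10.46 to 10.62 in AF. The interstitial macrophage mean of EF replicate 4 was 10.64, against 10.80 to 10.96 in EF replicates 1 to 3 and 10.46 to 10.54 in AF. The part of these differences in the chemokine values was not tested.

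**Figure D4:**
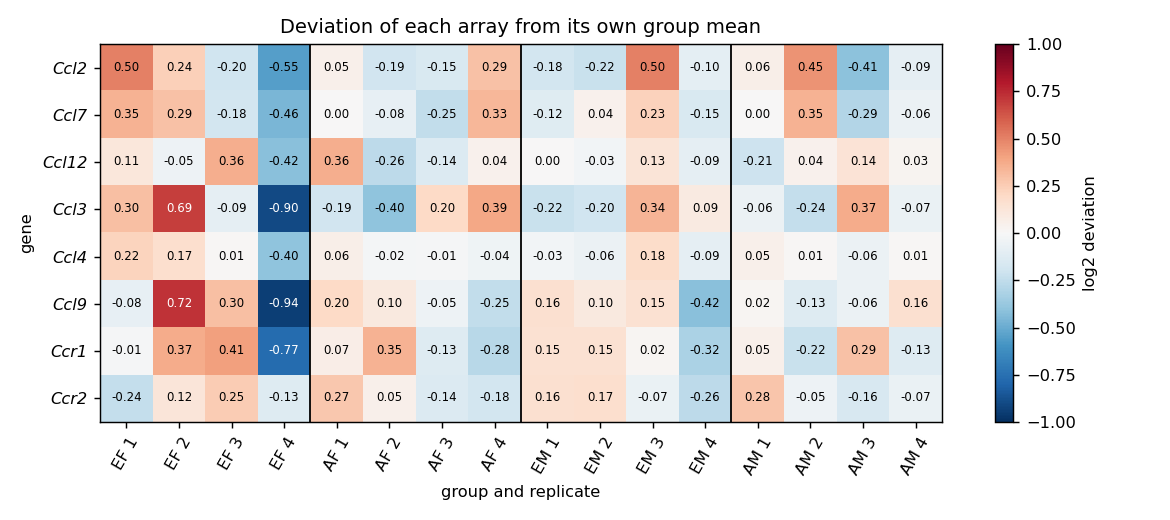
Deviation of each array from the mean of its own group, in log2 units, for the brighter or only probe set of each gene (rows) and the 16 arrays (columns). EF replicate 4 lay below its group for all 8 genes, by 0.94 for Ccl9 and by 0.13 for Ccr2, and Ccl2 and Ccl7 had deviations of like sign in most arrays.

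Within the groups, some members moved together from array to array. Deviations from the group mean over the 16 arrays were correlated, as a description over values that share their arrays. For Ccl2 and Ccl7, neighbours on chromosome 11, the correlation was 0.93, and 0.91 without EF replicate 4. Among 11397 genes screened, each was the gene whose deviations were most like the other's. Ccl9 and Ccr1 were correlated at 0.86, and at 0.73 without that array. Of the other pairs, Ccl2 and Ccl4 had a correlation of 0.77 with that array and 0.73 without it. Ccl9 and Ccr2 were at 0.57 with it and 0.63 without it, and Ccr1 and Ccr2 at 0.55 and 0.58. Some pairs moved more with that array. Ccl3 and Ccr1 had a correlation of -0.03 without it and 0.40 with it, and Ccl2 and Ccl9 -0.02 without it and 0.31 with it. Ccl12 was not close to its neighbours, at 0.34 with Ccl2 and 0.31 with Ccl7.

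For each member called in either sex, the 3 genes with the most similar deviations over the 16 arrays were found. After Ccl2, the nearest to Ccl7 were Sdf2l1 at 0.912 and Diablo at 0.879. After Ccl7, the nearest to Ccl2 were Cxcl10 at 0.888 and Tars at 0.877. The nearest to Ccr1 were Trem2, a lipid receptor of macrophages, at 0.954, Plek at 0.951 and Apobec1 at 0.944. Those of Ccl12 were Filip1l (0.96), Sema5a (0.951) and Spast (0.94). Those of Ccl4 were Rhou (0.931), Tes (0.915) and Naa38 (0.912). These correlations dropped to 0.766, 0.779 and 0.763 without the 2 arrays whose Ccl4 value was farthest from its group mean, EF replicates 4 and 1. For the other 4 members the correlations without the 2 farthest arrays were 0.831 to 0.942. These genes did not all differ with smoke. Sdf2l1 rose by 0.81 in females and 0.83 in males, while Trem2 had differences of 0.14 and -0.32 that did not pass (adjusted p = 0.801 and 0.397).

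The other genes of the pathway were taken from 5 lists with 47 measured entries. Of these, 5 rose in females, where 2.36% of all probe sets were higher, and 8 in males, where 3.07% were. None fell, where only 0.517% of all probe sets were lower in females and 2.11% in males. List genes were represented by their brightest probe sets. With the dimmest 40% of probe sets dropped, the shares called higher were 5.40% and 6.16%. All lists, the marker lists below included, were chosen with earlier results of these data known. Their counts are therefore a description and no independent support. In a list of 3 other CC chemokines, Ccl8, encoded in mice near Ccl12, had values of 12.93 to 13.44 in EF, against 12.05 to 12.61 in AF. In males they were 13.21 to 13.52 in EM, against 12.48 to 12.83 in AM. The groups did not overlap in either sex, and Ccl8 rose by 0.88 ± 0.12 in females (adjusted p = 0.000806) and 0.73 ± 0.12 in males (adjusted p = 0.00258). Through which receptor Ccl8 acts in these lungs was not tested. Ccl5 and Ccl6, the other 2 genes of that list, had differences of 0.16 and 0.09 in females and -0.02 and 0.13 in males, which did not pass. None of 4 measured receptor genes, Ccr3, Ccrl2 and the scavenging receptors Ackr1 and Ackr2, was called in either sex.

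A list of 16 measured genes held cytokines that can induce CC chemokines, transcription factors, the NF-kB inhibitors Nfkbia and Tnfaip3 and the NF-kB target Icam1, and 4 of them rose in females and 5 in males. Il6, a cytokine of acute inflammation, had log2 values of 5.02 to 6.70 in EF, against 4.31 to 5.27 in AF, which overlapped through EF replicate 4. In males they were 7.56 to 7.70 in EM, against 5.54 to 6.31 in AM, with no overlap. Il6 rose by 1.15 ± 0.26 in females (adjusted p = 0.0212) and 1.68 ± 0.26 in males (adjusted p = 0.00137). The female call was lost with the replicate number as a block (adjusted p = 0.0727), with the females fitted alone (0.102) and without EF replicates 1, 2 or 3 or AF replicates 2 or 3 (0.0592 to 0.0841). Il1b, which drives chemokine production in many cells, rose by 0.71 ± 0.14 in each sex (adjusted p = 0.0082 in females and 0.00554 in males). Relb, a subunit of NF-kB, rose in males by 0.50 ± 0.09 (adjusted p = 0.00336), and its female difference was 0.22 (adjusted p = 0.208, and 0.0284 without EF replicate 4). Nfkb2 rose by 0.34 and 0.36 in females and males (adjusted p = 0.0377 and 0.0184), and was called in 9 of 16 fits with 1 array left out in females and in 13 of 16 in males. The remaining calls, named after their values were seen, were the cytokine Il1a in females (0.31 ± 0.08, adjusted p = 0.0408) and the adhesion molecule Icam1 in males (0.30 ± 0.08, adjusted p = 0.0453), each in 5 of 16 such fits. Tnf, Il4, Il13 and Ifng were not called in either sex.

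The signalling list gave 1 call of 16 genes, in males, for Nup85, a nuclear pore protein that also binds Ccr2 (0.23 ± 0.07, adjusted p = 0.05 after rounding, called in 3 of 16 fits with 1 array left out). In the list of monocyte survival factors and the fractalkine axis 1 of 8 was called, Csf1, the macrophage growth factor, at 0.34 ± 0.10 in males (adjusted p = 0.049, called in 4 of those 16 fits). Its receptor Csf1r and the patrolling monocyte receptor Cx3cr1 had differences of 0.20 and -0.07 in females and 0.11 and -0.12 in males, which did not pass.

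Marker genes of cells that carry these receptors or secrete these ligands were read beside the chemokines. Of 8 measured markers of inflammatory monocytes, 2 were higher in females and 1 in males, where 2.36% and 3.07% of all probe sets were higher. The median differences of the 8 markers were 0.25 and 0.24. Their mean level was 10.08 to 10.33 in EF, against 9.84 to 9.97 in AF, and 10.41 to 10.51 in EM, against 10.04 to 10.26 in AM. Vcan, a matrix proteoglycan of monocytes that fibroblasts also make, rose by 0.86 ± 0.15 and 0.88 ± 0.15. S100a4, a calcium-binding protein, rose in females by 0.48 ± 0.13, but was called in 2 of 16 fits with 1 array left out. Patrolling monocyte markers gave no call, with medians of 0.01 and 0.10, and mean levels of 8.45 to 8.66 in EF, against 8.57 to 8.65 in AF, and of 8.44 to 8.57 in EM, against 8.26 to 8.57 in AM.

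Some macrophage markers were called, where 2.87% of all probe sets were called in females and 5.18% in males. Of 8 interstitial macrophage markers 3 rose and 1 fell in each sex, with medians of 0.38 and 0.40 and mean levels of 10.64 to 10.96 in EF, against 10.46 to 10.54 in AF, and of 10.46 to 10.69 in EM, against 10.07 to 10.24 in AM. Cd163, a scavenger receptor, rose by 0.88 ± 0.18 in females and 1.41 ± 0.18 in males, the chemokine Pf4 by 0.77 and 0.69, and Folr2, a folate receptor, by 0.60 and 0.69, while the lipid carrier Apoe fell by 0.51 and by 0.64. The female call of Cd163 was lost with females fitted alone (adjusted p = 0.0721). That of Apoe was lost without EF replicate 2, AF replicate 2 or AF replicate 3 (adjusted p = 0.0567, 0.0672 and 0.0645). Of 8 general macrophage markers 1 rose in each sex, Cd14, a receptor for bacterial lipopolysaccharide, by 0.69 ± 0.13 and 0.76 ± 0.13, and Lyz2 fell in males by 0.49 ± 0.07. Their mean level was 10.45 to 10.81 in EF, against 10.46 to 10.62 in AF, and 10.37 to 10.50 in EM, against 10.35 to 10.47 in AM. Of 9 alveolar macrophage markers Mrc1, the mannose receptor, alone was called, higher by 0.72 ± 0.12 and 0.66 ± 0.12. The list medians were 0.28 in females and 0.16 in males. Siglecf, also on the eosinophil list, was among those with negative differences, -0.32 and -0.54, which did not pass (adjusted p = 0.567 and 0.216). List means were 8.91 to 9.07 in EF, against 8.53 to 8.91 in AF, and 8.67 to 8.75 in EM, against 8.52 to 8.66 in AM.

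**Figure D5:**
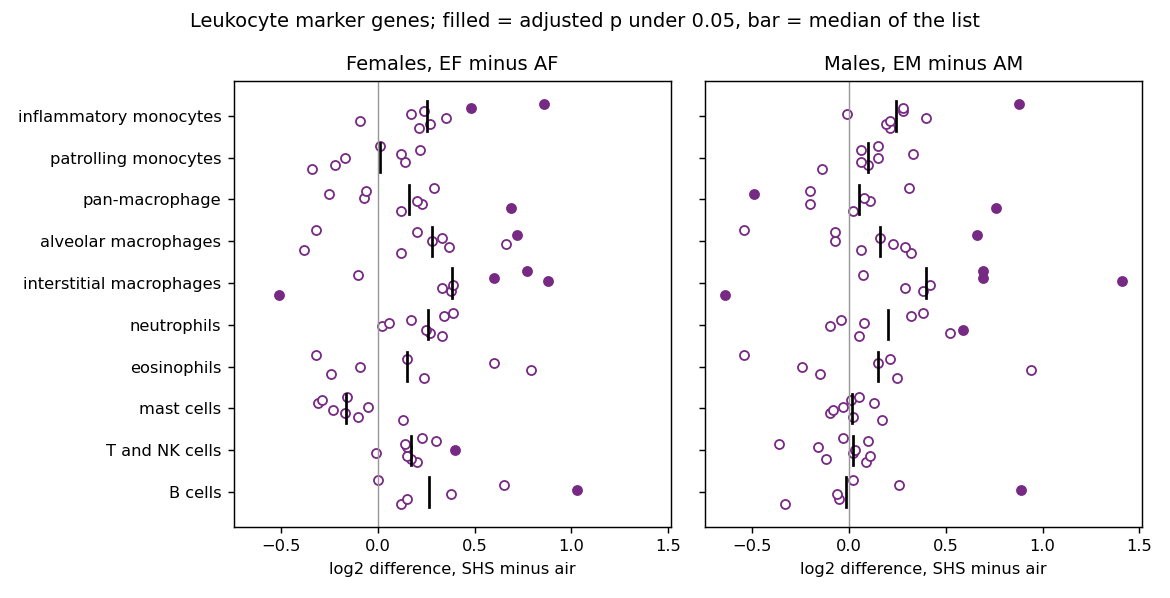
Log2 difference (horizontal axis, SHS minus air) of each measured marker gene of 10 leukocyte lists, females at the left and males at the right. Filled points passed the test and the vertical bar is the median of the list, which was highest for interstitial macrophages at 0.38 in females and 0.40 in males.

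Some markers of other sources were also called, where 2.87% of all probe sets were called in females and 5.18% in males. No marker was called among 7 of eosinophils, 8 of mast cells and 9 of lung epithelium in either sex. Eosinophil means were 6.83 to 8.41 in EF, against 7.58 to 7.74 in AF, and 7.22 to 8.19 in EM, against 7.53 to 7.88 in AM. Of 8 neutrophil markers Cxcr2, a receptor for neutrophil chemokines, rose in males by 0.59 ± 0.13 (adjusted p = 0.057 without AM replicate 3), with list means of 7.58 to 8.11 in EF, against 7.38 to 7.76 in AF, and of 7.74 to 7.85 in EM, against 7.43 to 7.66 in AM. Of 6 B cell markers Fcer2a, the low-affinity IgE receptor, alone was called. It rose by 1.03 ± 0.24 in females and 0.89 ± 0.24 in males. The median difference of the 6 was 0.27 in females and -0.02 in males. B cell means were 8.93 to 9.56 in EF, against 8.70 to 9.02 in AF. In males they were 8.45 to 9.07 in EM, against 8.43 to 8.84 in AM. Fcer2a was called in 10 of 16 fits with 1 array left out in each sex. Of 9 T and NK cell markers Cd8b1 rose in females by 0.40 ± 0.10, in 11 of 16 such fits. The fibroblast marker Tcf21 and the endothelial receptor Tek fell in females by 0.56 and by 0.46, each as the single call of 7 markers, Tcf21 in 16 of 16 such fits and Tek in 9. The part of cell numbers in the chemokine differences was not tested.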

How the data were processed

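Lung RNA was labelled as biotinylated cRNA and measured on Affymetrix mouse arrays, per the labels' protocols. The authors deposited log2 values, a single one for each probe set and array, already normalized between arrays. How they were normalized is not given in the sources used; limma is a tool named in the submitters' processing notes. The log base was read from the values, 2.58 to 15.22. Values were used as deposited, and raw intensities were not analysed here.

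After 64 control probe sets were set aside, 45037 remained, of which 34945 had exactly 1 symbol, 932 several and 9160 none. Symbols were updated by Entrez identifier to RefSeq GRCm38.p6 for 34741. Group means were fitted with limma 3.58.1 in R 4.3.3 (data.table package, version 1.17.8) to all 16 arrays, with 12 residual and 5.56 prior degrees of freedom. Tests were two-sided, with Benjamini-Hochberg adjustment over all probe sets of a comparison. A gene of a list was represented by its probe set of highest mean, and 148 of 164 list entries in 18 lists were measured. Up to 4 called genes of the largest difference were named per list. For likeness, deviations from group means were correlated among genes above the median probe-set mean of 7.02. Members and lists were chosen with earlier results of these data known. Sequences are RefSeq's (GRCm38.p6).

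Alternatives were quantile normalization, median centring, a filter that dropped the dimmest 40% of probe sets, the replicate number as a block, each sex alone, array weights, each array left out in turn, and both SHS arrays numbered 4 left out. The fit was tested on simulated data. Figures used matplotlib 3.10.9 in Python 3.11.15.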

Additional observations from a re-analysis of the deposited data

Results flagged for a closer look

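Among 52 sets of 4 arrays (13 probe sets in 4 groups), 3 held an array that stood apart by Dixon's criterion at 95%, where chance alone flags about 5% of sets. All were in SHS males. Ccl2 was 9.51 in EM replicate 3, and the nearest other EM array had 8.91 and the lowest 8.78. Ccl9 (the brighter probe set) was 11.98 in EM replicate 4, below the other EM arrays at 12.51 to 12.56. Ccr1 (the dimmer probe set) was 6.86 in EM replicate 4, and the next EM array had 7.28 and the highest 7.36. No member passed the test of the difference in response between the sexes.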

How the results depend on the processing

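The count of members called in females was 3 of 13. It was 3 with quantile normalization, median centring, the filter on dim probe sets and the replicate number as a block, 1 with each sex fitted alone, 9 with array weights and 9 with EF replicate 4 and EM replicate 4 both left out. With 1 array left out in turn it ranged from 2 to 9, the highest without EF replicate 4. In males the count was 4, and 4 with the replicate block. It was 7 with both SHS arrays numbered 4 left out, 4 to 6 under the other alternatives and 3 to 5 with 1 array left out. The difference between the sexes gave 0 members under each alternative run for it. It was not run with each sex alone, which allows no such comparison. All female probe sets called numbered 1294, and 448 with females alone, 3985 with array weights, 3954 without both arrays numbered 4 and 657 to 3604 with 1 array left out. All male probe sets called numbered 2332, and 1073 to 3153 with 1 array left out, 4398 with array weights and 3315 (7.36%, with 4.15% higher) without both arrays numbered 4. With quantile normalization 2.71% of all probe sets were called in females, 1.91% as higher, against 2.87% and 2.36% as deposited. Same-numbered SHS and air arrays of a sex correlated in their deviations at -0.08 to 0.27, so the numbers were not taken to pair mice. The replicate block gave 1023 probe sets in females and 1716 in males, and ended the female calls of Il6, Nfkb2, S100a4, Cd8b1 and Il1a (adjusted p = 0.0727, 0.0886, 0.0589, 0.0726 and 0.0786) and the male calls of Nfkb2, Csf1, Nup85 and Icam1 (0.053, 0.0886, 0.0848 and 0.0616), and no other call of a member or of a gene described here as having risen or fallen. Fitting each sex alone also ended the female calls of Il6, Nfkb2, Cd14, Cd163, Cd8b1, Fcer2a, S100a4, Il1a and Tek (adjusted p = 0.0565 to 0.174) and the male calls of Csf1 (0.0513) and Icam1 (0.0606). Quantile normalization ended the female calls of Nfkb2, S100a4 and Il1a (0.0576, 0.0667 and 0.0694), and median centring those of Il1a in females (0.0551) and Icam1 in males (0.0507). Lyz2 in females and Tek in males, not called with all arrays, passed without EF replicate 4 (0.0118 and 0.00893). The sign of small differences turned with 1 array left out. Ccr2 ranged from -0.01 to 0.19 in females (dimmest probe set) and, in males, from -0.09 to 0.17 (second brightest) and from -0.18 to 0.01 (dimmest). In males Cd8b1 ranged from -0.06 to 0.10 and Tcf21 from -0.08 to 0.03. The cause was not tested. The 4 arrays per group limited what could be told apart, and no depth or background measure came with the log2 values.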
